A study of Homo sapiens with 4 samples.

Results

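The MYC, MYB and MAX network was followed in KBM5 cells through 9 genes: MYC, MYB, MAX and the 6 MYC antagonists MXD1, MXD3, MXD4, MXI1, MNT and MGA. They were taken by gene name from an expression table of 50868 genes, and each name matched 1 row. KBM5 is an established human line of BCR-ABL-positive chronic myeloid leukemia in blast crisis. The libraries came from control cells (CTR), cells given DSF, cells given IM, and cells given both (IM-DSF), with 1 mRNA library for each of the 4 groups; the labels give the tissue as blood, and no dose or duration. IM and DSF are not spelled out in the labels and are read here as imatinib, an inhibitor of the BCR-ABL kinase, and disulfiram. The study, by its title, asked what targeting GPX4, an enzyme that removes lipid peroxides, together with BCR-ABL does to leukemia stem cells.

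MYC is a transcription factor that binds DNA only as a dimer with MAX, at the E-box CACGTG, and drives growth, ribosome production and metabolism. The MXD proteins, MXI1 and MNT form dimers with the same partner, occupy the same sites and recruit the SIN3 corepressor, so that MAX sits between an activating and a repressing arm; MGA is a much larger partner of MAX that works within a Polycomb complex. MYB is an unrelated transcription factor that maintains immature blood cells and declines as they mature. In the myeloid lineage MYC is known to decline and MXD1 to appear as cells leave the cycle.

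With 1 library per group there was no replicate check, so no p-value is given and each difference is between 2 libraries. Levels are FPKM, fragments per kilobase of gene and per 1000000 fragments, which allow genes to be set side by side within a library. A difference is one of log2(FPKM + 1), and a gene was called higher or lower when it reached 1 log2 unit. Ratios are of FPKM, with a 95% interval that covers counting error only, computed from approximate fragment numbers. The depth recovered from the table, in units of 1000000 fragments, was 12.4 in IM-DSF to 15.8 in IM. Of the 10 myeloid markers examined 9 averaged 1 FPKM or more, but KIT was listed at 0 in all libraries and the stem cell marker CD34 did not exceed 0.0055 FPKM. Among T cell, B cell, erythroid and megakaryocyte markers the highest value was 0.134, 0.337, 0.0639 and 0.459 FPKM. In such bulk libraries, fewer cells of a kind and less RNA per cell cannot be told apart.

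Of the 9 genes, 8 averaged 1 FPKM or more across the libraries and were counted beside the 11004 genes that did so; MXD3 did not. MXD1 met that minimum only through the treated libraries. MXD1 and MXD4 were the members called higher than CTR. MYC itself lay within counting error in all contrasts at the approximate fragment numbers used. In IM against CTR, 2 of the 8 members (MXD1 and MXD4) were called higher, against 1.54% of all genes, and 0 lower, against 0.891%. In DSF against CTR, 1 (MXD1) was called higher, against 0.545%, and 0 lower, against 0.573%. In IM-DSF against CTR, 2 (MXD1 and MXD4) were called higher, against 2.54%, and 0 lower, against 1.74%. These 3 contrasts share the CTR library. No member was called in IM-DSF against IM (background 0.700% higher and 1.04% lower) or in IM-DSF against DSF (1.33% and 1.05%). The median log2 difference of the 8 members was 0.16 in IM against CTR, 0.11 in DSF and 0.08 in IM-DSF, where all genes had medians of 0.024, 7.47e-05 and 0.021. It was -0.08 in IM-DSF against IM and 0.12 in IM-DSF against DSF, where all genes had -0.0013 and 0.013.

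The sequence upstream of 3 antagonist genes is shown because MXD1 and MXD4 were the members called higher under treatment, and because MXD4 and MNT were the members, of the 8 with a RefSeq promoter window, whose window held the E-box that MYC and its antagonists share. Each stretch (RefSeq, GRCh38.p14) is the part of the 250 bases before the gene's RefSeq start site that lies outside annotated exons, on the gene's strand. The capitals mark CACGTG in MXD4 (chr4:2262295-2262359, minus strand) and MNT (chr17:2401119-2401310, minus strand), and in MXD1 (chr2:69914859-69915040, plus strand) a match to AACNG, the core of the site that MYB binds, read on the opposite strand. That core also occurs once each in MXD4 and MNT, where it is left in lower case.
MXD1: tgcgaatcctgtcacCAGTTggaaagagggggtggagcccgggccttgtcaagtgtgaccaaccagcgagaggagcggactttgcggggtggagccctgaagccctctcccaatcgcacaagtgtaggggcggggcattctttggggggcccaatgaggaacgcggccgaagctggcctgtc
MXD4: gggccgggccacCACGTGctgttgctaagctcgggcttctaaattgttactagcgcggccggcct
MNT: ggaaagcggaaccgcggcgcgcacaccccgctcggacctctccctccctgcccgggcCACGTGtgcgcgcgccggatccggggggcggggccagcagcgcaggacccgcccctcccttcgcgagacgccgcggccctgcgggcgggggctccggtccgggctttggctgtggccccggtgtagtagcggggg
The E-box began 238 bases before the start site in MXD4 and 193 bases before it in MNT, and the MYB core began 235 bases before it in MXD1. The RefSeq table held 13 windows (250 bases before and 50 after a start) for 8 of the members, all but MYC. CACGTG, which reads the same on either strand, occurred in 2 of the 13, against 7.26% of the 35116 such windows of all genes. AACNG, on either strand, occurred in 11 of the 13, against 77.2%. The STAT-type site TTCNNNGAA occurred in 0 of the 13, against 7.66%. These are letter matches and no binding was measured. Of the pair with the E-box, MXD4 was called higher under IM, and MNT had no ratio to CTR beyond counting error.

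MYC (ENSG00000136997; GRCh38.p14 chromosome 8, 127735434 to 127741434, plus strand) had 1.17 FPKM in CTR and 1.34 in DSF, against 1.27 in IM and 0.807 in IM-DSF. These rest on approximately 40, 46, 47 and 24 fragments. The level was low in every library: of the 11004 genes, 10645 had a higher mean. The IM library stood at 1.09 times CTR (0.692 to 1.69) and the DSF library at 1.14 times (0.726 to 1.78). IM-DSF held the lowest value, at 0.690 times CTR (0.403 to 1.19), 0.635 times IM (0.380 to 1.08) and 0.604 times DSF (0.360 to 1.03). All 3 intervals include 1, so no order of the 4 libraries was resolved for MYC at these fragment numbers. The numbers assume the longest coding transcript, of 2366 bases. All exons of the gene cover 3001 bases, and with that length the numbers would be larger and the intervals narrower. Whether the interval against DSF, with its upper bound of 1.03, includes 1 therefore depends on the length assumed. Of the other MYC genes, MYCN was listed at 0 in all libraries, and MYCL ranged from 0.921 FPKM in DSF to 1.13 in IM-DSF.

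MYB (ENSG00000118513; chromosome 6, 135181315 to 135219173, plus strand) was the most abundant member, with 30.96 FPKM in CTR and 41.5 in DSF, against 32.6 in IM and 32.9 in IM-DSF. Its level was 26.5 times that of MYC in CTR and 40.7 times in IM-DSF. The DSF library stood apart from the others, which lay close together. It was 1.34 times CTR (1.26 to 1.43), and IM-DSF was 0.791 times DSF (0.741 to 0.845). IM was 1.05 times CTR (0.986 to 1.13) and IM-DSF 1.06 times (0.989 to 1.14), which are not resolved. The DSF difference of 0.41 log2 units was below the size rule, and 584 genes had a more positive one in that contrast.

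MAX (ENSG00000125952; chromosome 14, 65006174 to 65102695, minus strand), the shared partner, had 4.27 FPKM in CTR and 2.63 in DSF, against 4.98 in IM and 4.27 in IM-DSF. DSF was the low library, at 0.616 times CTR (0.488 to 0.778), a difference of -0.54 log2 units that did not reach the size rule; 271 genes had a more negative one. The low level was not seen when IM was also given: IM-DSF was at 1.62 times DSF (1.27 to 2.06) and at the CTR level, with an interval of 0.807 to 1.23 for their ratio. IM was 1.17 times CTR (0.963 to 1.41), within counting error. In the plot of levels by library, MAX and MYB show their odd library in DSF, in opposite directions.

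**Figure D1:**
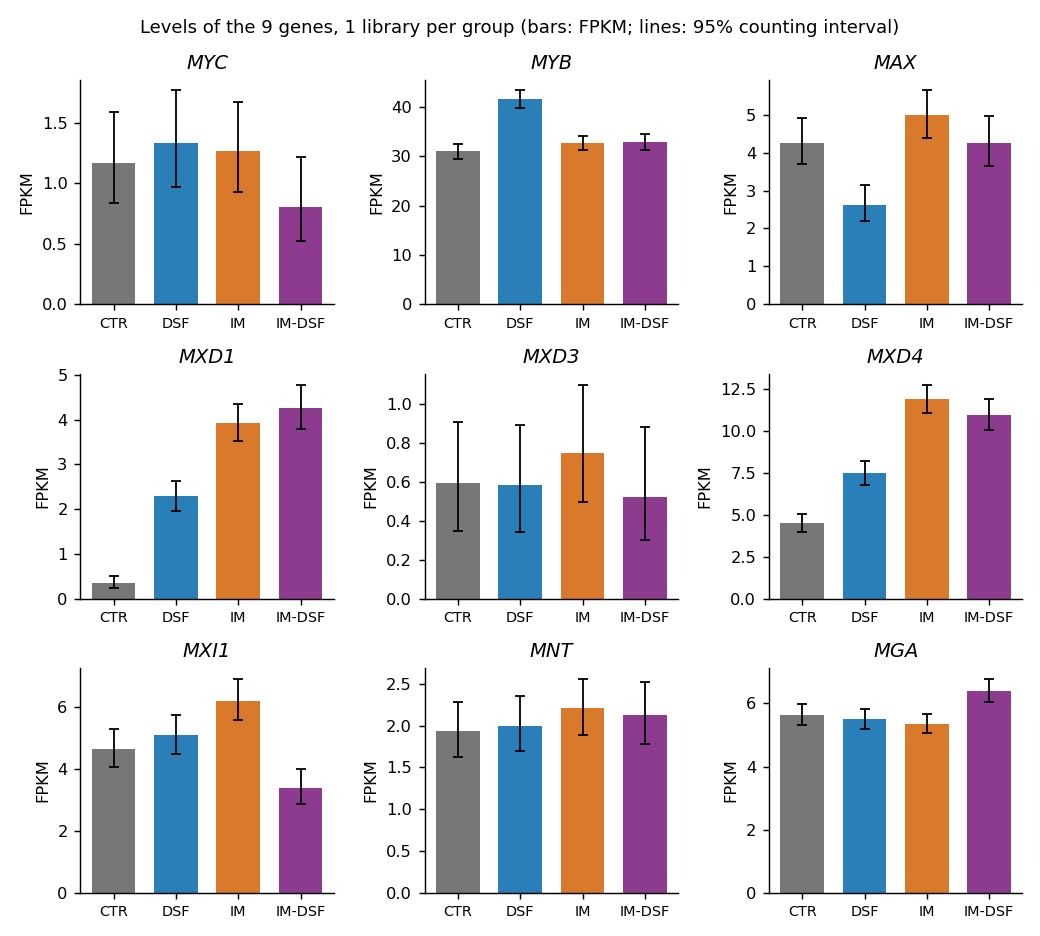
FPKM (y axis, a separate scale in each panel) of the 9 genes in the CTR, DSF, IM and IM-DSF libraries (x axis). Bars are the deposited values of 1 library per group and lines are 95% counting intervals. MXD1 and MXD4 have their lowest bar in CTR, MAX has its lowest in DSF (2.63), MYB its highest in DSF (41.5), and the MYC intervals overlap.

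MXD1 (ENSG00000059728; chromosome 2, 69897688 to 69942945, plus strand), an antagonist known from maturing myeloid cells, had the lowest level of all members in CTR, 0.353 FPKM. DSF had 2.28 FPKM, IM 3.92 and IM-DSF 4.27. CTR lay far below the 3 treated libraries, and DSF below the 2 libraries with IM. The ratio to CTR was 6.48 in DSF (4.29 to 9.76) and 11.1 in IM (7.46 to 16.5), with 12.1 in IM-DSF (8.11 to 18.1), and all of these share the 29 approximate fragments of the CTR library. On the log2 scale the differences were 1.28, 1.86 and 1.96, and 33, 10 and 13 of the 11004 genes had a more positive one. With a pseudocount of 0.1 in place of 1 they were 2.40, 3.15 and 3.27. In the contrast that does not use CTR, IM-DSF was 1.87 times DSF (1.55 to 2.26), a difference of 0.68 log2 units. IM-DSF and IM were not resolved, at a ratio of 1.09 (0.930 to 1.28).

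The annotated 5' end of MXD1 shares exon sequence with SNRNP27, a splicing factor gene on the same strand, and how the counting divided such reads is not known. SNRNP27 had 10.2 FPKM in CTR and 9.46 in DSF, against 8.77 in IM and 7.91 in IM-DSF, so it was lowest where MXD1 was highest. Its ratio to CTR was 0.928 in DSF (0.777 to 1.11) and 0.860 in IM (0.720 to 1.02), with 0.776 in IM-DSF (0.638 to 0.942). In approximate fragments SNRNP27 had 266, 250, 249 and 177, and MXD1 had 29, 187, 345 and 296. The part of shared reads in the MXD1 values was not tested. With such exon-sharing genes left out, a choice made after seeing the data, the number of members called higher against CTR was 0 in DSF, 1 in IM and 1 under both drugs, the last 2 being MXD4.

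MXD4 (ENSG00000123933; chromosome 4, 2247432 to 2262294, minus strand), an antagonist linked to mature and resting cells, had 4.48 FPKM in CTR and 7.47 in DSF, against 11.9 in IM and 10.9 in IM-DSF. The order of the libraries was CTR, DSF, then those with IM, which lay close together. The ratio to CTR was 1.67 in DSF (1.43 to 1.95) and 2.65 in IM (2.30 to 3.07), with 2.44 in IM-DSF (2.11 to 2.84). The log2 differences were 0.63, 1.23 and 1.12, so that DSF alone did not reach the size rule. IM-DSF was 1.46 times DSF (1.29 to 1.66) and 0.920 times IM (0.823 to 1.03). The exons of MXD4 contain the microRNA gene MIR4800 and share none with another protein-coding gene.

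The summed level of the myeloid markers was also higher in the libraries where MXD1 and MXD4 were higher. Of the 9 that passed the minimum level, 8 lay above CTR under DSF, 8 under IM and 6 under IM-DSF, with medians of 0.40, 0.67 and 0.36 log2 units, where all genes had 7.47e-05, 0.024 and 0.021. Of these 9, 0, 3 and 3 were called higher, against 0.545%, 1.54% and 2.54% of all genes. The summed FPKM of the 10 markers was 1486 in CTR and 2018 in DSF, against 2576 in IM and 2545 in IM-DSF. Most of the sum came from the granule and lysozyme genes PRTN3, ELANE, LYZ and AZU1, at 769, 372, 154 and 111 FPKM in CTR against 989, 619, 599 and 247 in IM-DSF. SPI1, CEBPE and CD33 were at 0.908, 0.808 and 0.982 times CTR in IM-DSF. The part of these markers in the MXD1 and MXD4 values was not tested.

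MXI1 (ENSG00000119950; chromosome 10, 110207605 to 110287365, plus strand), an MXD-type antagonist, followed another course. It had 4.66 FPKM in CTR and 5.11 in DSF, against 6.22 in IM and 3.40 in IM-DSF. The highest library was IM and the lowest was the one with both drugs. IM was 1.33 times CTR (1.13 to 1.59), DSF was 1.10 times (0.915 to 1.31), and IM-DSF was 0.729 times (0.592 to 0.904). IM-DSF was also 0.547 times IM (0.448 to 0.667), a difference of -0.71 log2 units, with 258 of the 11004 genes more negative, and 0.665 times DSF (0.542 to 0.821). None of these reached the size rule.

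MXD3 (ENSG00000213347; chromosome 5, 177301461 to 177312757, minus strand), which is known from dividing cells, had 0.590 and 0.582 FPKM in CTR and DSF, and 0.746 and 0.521 in IM and IM-DSF. With 15 to 27 approximate fragments, its ratio to CTR was 0.987 (0.494 to 1.97), 1.27 (0.699 to 2.48) and 0.882 (0.435 to 1.91) in DSF, IM and IM-DSF, and no order could be resolved. It shares exons with RAB24 on the same strand, which had 1.04 and 1.36 FPKM in CTR and DSF, and 1.57 and 1.88 in IM and IM-DSF. MXD3 also overlaps PRELID1 on the opposite strand.

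MNT (ENSG00000070444; chromosome 17, 2384060 to 2401118, minus strand), the antagonist that most cell types express at all times, had 1.94 FPKM in CTR and 1.998 in DSF, against 2.21 in IM and 2.12 in IM-DSF. Its ratio to CTR was 1.03 in DSF (0.816 to 1.32) and 1.14 in IM (0.908 to 1.44), with 1.09 in IM-DSF (0.860 to 1.40). No library stood apart.

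MGA (ENSG00000174197; chromosome 15, 41621224 to 41773081, plus strand) had 5.63 FPKM in CTR and 5.51 in DSF, against 5.35 in IM and 6.40 in IM-DSF. IM-DSF was the high library, at 1.14 times CTR (1.05 to 1.23), 1.20 times IM (1.10 to 1.30) and 1.16 times DSF (1.07 to 1.26). CTR, DSF and IM did not separate, with ratios to CTR of 0.977 (0.901 to 1.06) in DSF and 0.949 (0.876 to 1.03) in IM. Antisense or opposite-strand genes at MYB, MAX, MXI1, MNT and MGA were listed at 0 in all libraries.

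**Figure D2:**
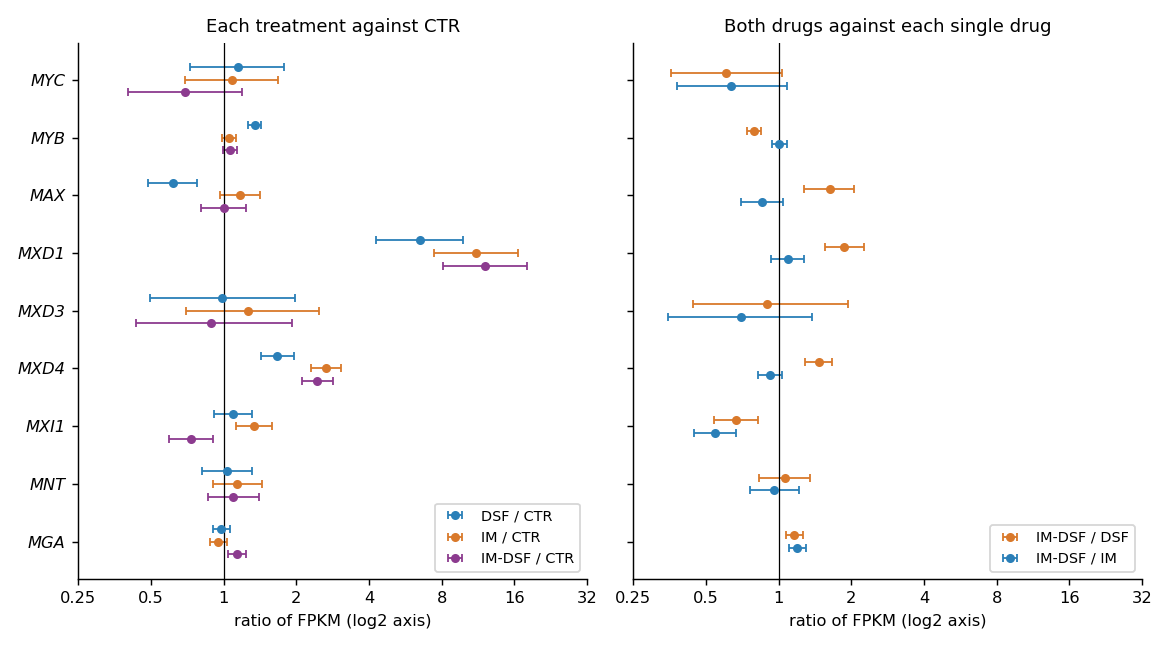
Ratio of FPKM between 2 libraries (x axis, log2 scale) for each member (y axis), with 95% counting intervals as lines. The left panel sets each treatment against CTR, where MXD1 lies at 6.48 to 12.1 and MXD4 at 1.67 to 2.65; the right panel sets IM-DSF against each single drug, where MXI1 lies at 0.547 and 0.665.

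Summed over the 6 antagonists, the level was 17.7 FPKM in CTR and 22.95 in DSF, against 30.3 in IM and 27.7 in IM-DSF. MXD1 and MXD4 together supplied 4.83, 9.75, 15.8 and 15.2 FPKM of these sums, and the other 4 antagonists 12.8, 13.2, 14.5 and 12.4. The share of MXD1 and MXD4 was thus 27.4% in CTR and 42.5% in DSF, against 52.1% in IM and 55.0% in IM-DSF. MGA was the largest single contributor in CTR, at 31.9% of the sum, and MXD4 in DSF, IM and IM-DSF, at 32.5%, 39.2% and 39.6%. MXD1 went from 1.996% in CTR to 15.4% in IM-DSF, and MXI1 from 26.4% to 12.3%.

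The ratio of MYC to the summed antagonists was 0.0662 in CTR (0.0473 to 0.0902) and 0.0582 in DSF (0.0426 to 0.0776), against 0.0419 in IM (0.0308 to 0.0557) and 0.0292 in IM-DSF (0.0187 to 0.0434), where the intervals hold the counting error of MYC only. The intervals of CTR and IM-DSF do not overlap, and those of neighbouring libraries in this order do. Without MXD1 and MXD3, which share exons with other genes, the ratio was 0.0699 in CTR (0.04996 to 0.0952) and 0.0353 in IM-DSF (0.0226 to 0.0525), and these intervals overlap. The intervals of CTR and IM overlap as well. MYC stood at 1.17 FPKM in CTR against 1.27 in IM, and the antagonist sum at 17.7 against 30.3. The antagonists exceeded their partner as well: their sum was 4.14 times the MAX level in CTR, 8.74 times under DSF, where MAX was low, and 6.09 and 6.48 times under IM and IM-DSF. These are ratios of transcript levels that depend on the gene lengths behind the FPKM, which are not given, and protein was not measured.

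**Figure D3:**
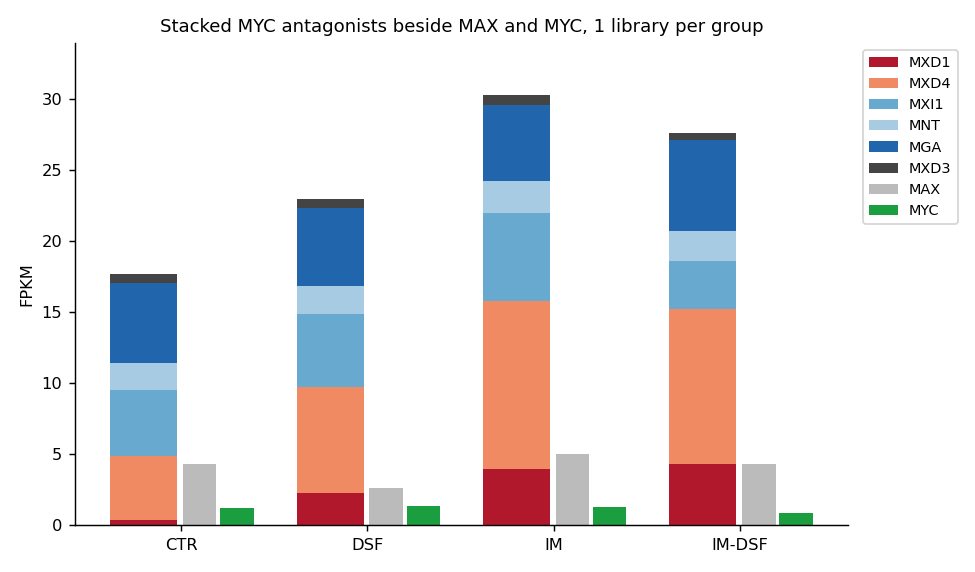
FPKM (y axis) of the 6 antagonists as stacked bars, with MAX and MYC as separate bars beside them, in each of the 4 libraries (x axis). The stack is 17.7 FPKM high in CTR and 30.3 in IM, and most of the added height is MXD4 and MXD1.

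For several members the DSF and IM differences did not sum to that of IM-DSF on the log2 scale. Departure here means what remains of the difference between IM-DSF and CTR once those of DSF and of IM have been taken away, so it draws on each library once. It was -1.18 ± 0.14 (counting SE) for MXD1, -0.82 ± 0.16 for MXI1, -0.74 ± 0.12 for MXD4 and -0.40 ± 0.07 for MYB. With a pseudocount of 0.1 the departure of MXD1 was -2.27, so its size depends on the pseudocount. For MAX and MGA it was positive, at 0.35 ± 0.17 and 0.25 ± 0.07. Of the 11004 genes, 97.9% had a smaller absolute departure, with the pseudocount of 1, than MXD1, 95.3% than MXI1 and 93.9% than MXD4. For MXD1 and MXD4 the sum of the single differences (3.14 and 1.86) was larger than the observed one (1.96 and 1.12), so the IM-DSF level stayed near that of IM alone. For MXI1 the single differences summed to 0.46, while the observed one was -0.36. MYC (-0.44 ± 0.25), MXD3 (-0.19 ± 0.25) and MNT (-0.07 ± 0.16) departed by less than 1.96 counting SE. For MYC the departure was -0.77 with a pseudocount of 0.1. The counting SEs given here hold for the pseudocount of 1 and would be larger with 0.1, so they cannot be set against that value.

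**Figure D4:**
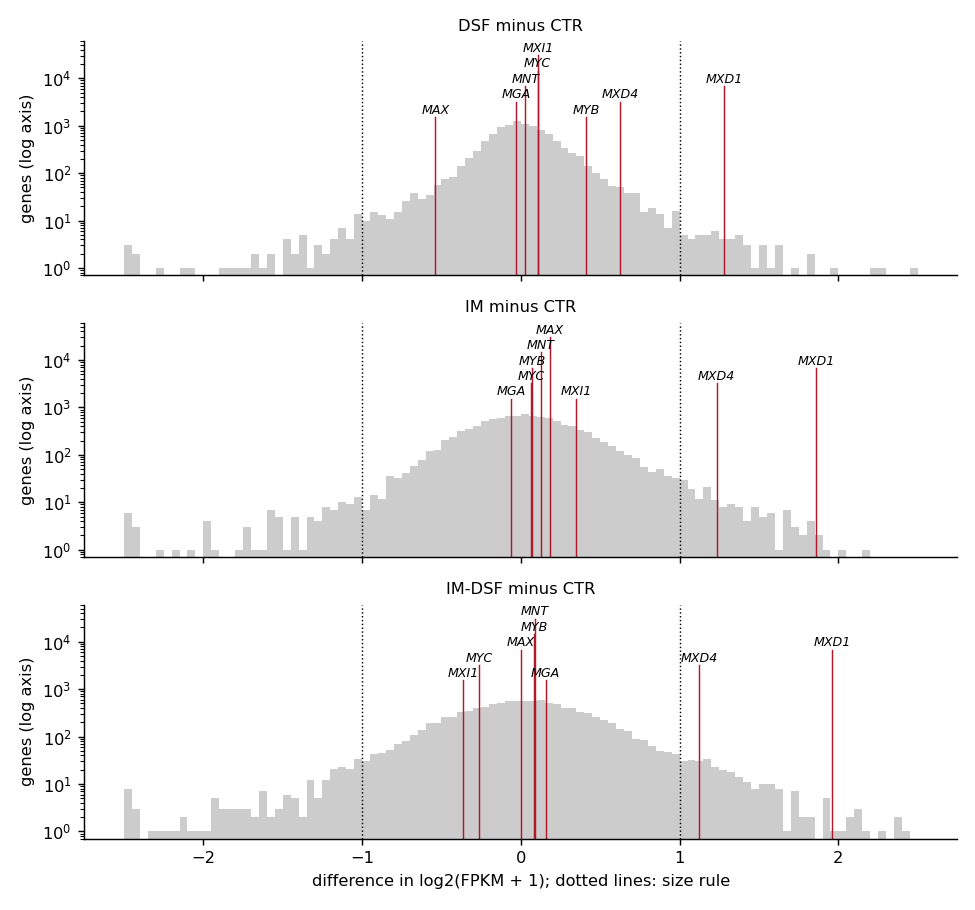
Number of genes (y axis, log scale) by difference in log2(FPKM + 1) (x axis; values beyond 2.5 are drawn at 2.5) for 11004 genes in DSF, IM and IM-DSF against CTR, with the 8 members past the minimum level as red lines. Dotted lines mark 1 log2 unit. MXD1 lies beyond the right line in all panels and MXD4 in those of IM and IM-DSF; the other members lie between the lines.

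Genes with the most similar course were looked for among 3462 protein-coding genes of at least 5 FPKM with no other gene on the same strand, by the Euclidean distance of the 3 log2 differences from CTR. Nearest to MXD1 were DCP2, an mRNA decapping enzyme (distance 0.38; 1.89 FPKM in CTR and 8.23 in IM-DSF), ALAD, an enzyme of heme synthesis (0.42; 1.68 and 7.88), GAA, the lysosomal glucosidase (0.43; 2.06 and 10.5), CFD, complement factor D (0.43; 25.9 and 102), and CSF3R, the G-CSF receptor of granulocytes (0.51; 5.003 and 22.1). Nearest to MYC were CHRAC1, LMNB1, HNRNPUL1, ZNF787 and SCAMP3, at distances of 0.039 to 0.073. Being picked for their nearness to MYC, which had no difference from CTR past the size rule, these genes had none either. Among the nearest to MYB were MARCKSL1, PRR3, HLTF and MATK, at distances of 0.067 to 0.12. The likeness is over 3 differences in log2(FPKM + 1) that share the CTR library, and describes these libraries only. The added 1 shrinks differences at low levels, so it is not a likeness in ratio. MXD1 stood at 12.1 times CTR in IM-DSF, where DCP2 had 8.23 FPKM against 1.89 in CTR. The MYC differences used for matching were within counting error.

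Genes that MYC is known to activate for growth, outside the members, were mostly lower in the libraries with IM. No difference in MYC was resolved there at the approximate fragment numbers used. Of 24 such genes past the minimum level, 22 lay below CTR in IM, with a median of -0.45 log2 units, where the median of all genes was 0.024. LDHA, lactate dehydrogenase, stood at 68.9 FPKM in CTR against 38.3 in IM, and ODC1, the first enzyme of polyamine synthesis, at 145 against 88.6. The 2 exceptions were the repair nuclease APEX1 (6.72 and 8.41 FPKM) and PTMA (120 and 132). None of the 24 reached the size rule in IM, where 0.891% of all genes were called lower. In IM-DSF against DSF 23 of the 24 were below 0 (median -0.38), and 1 was called lower, against 1.05% of all genes. In DSF against CTR the count was 20 of 24 (median -0.15), with none called, against 0.573% of all genes called lower. In IM-DSF against CTR it was 22 of 24 (median -0.51), and 2 were called lower, against 1.74% of all genes. These were SLC1A5, a glutamine transporter (77.2 and 30.01 FPKM), and HSPE1, a mitochondrial chaperone (91.2 and 36.9), which shares exons with a read-through gene.

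Genes that MYC is known to repress were few. Of 8, only CEBPA, CDKN1B, NDRG1 and GADD45A passed the minimum level, and 3 of these 4 lay above CTR in IM (median 0.29, or 0.10 over all 8 with no filter). CDKN1B, the CDK inhibitor p27, stood at 11.9 FPKM in CTR against 15.0 in IM. GADD45A, which lay below CTR, stood at 2.66 FPKM in CTR against 2.43 in IM. None of the 4 was called in any contrast, where at most 2.54% of all genes were called higher. Below the minimum level, CDKN1A was at 0.469 times CTR in IM-DSF (0.241 to 0.882) and THBS1 at 1.68 times (1.16 to 2.4).

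Known MYB targets did not share 1 direction. Of 11 past the minimum level, 6 were above CTR in IM and 5 below (median 0.36, or 0 over all 13 with no filter). In DSF 8 were above CTR and 3 below (median 0.13), and in IM-DSF 7 and 4 (median 0.12). The granule genes MPO, ELANE and PRTN3 are in this list and among the myeloid markers above. LMO2, a hematopoietic adaptor, was called higher in DSF, IM and IM-DSF against CTR, as were 0.545%, 1.54% and 2.54% of all genes. It had 9.50 FPKM in CTR and 23.8 in DSF, against 28.2 in IM and 24.4 in IM-DSF. MYB itself was highest in DSF. ADA, adenosine deaminase, was called higher in IM-DSF against CTR (5.68 and 13.4 FPKM). The cyclins CCNB1 (41.7 FPKM in CTR and 28.6 in IM) and CCNE1 (7.88 and 5.14) had the most negative differences of the list in IM. MYBL2, the relative of MYB that drives mitotic genes, had 100.3 FPKM in CTR and 107.5 in DSF, against 83.0 in IM and 64.6 in IM-DSF, the last at 0.645 times CTR (0.611 to 0.679).

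**Figure D5:**
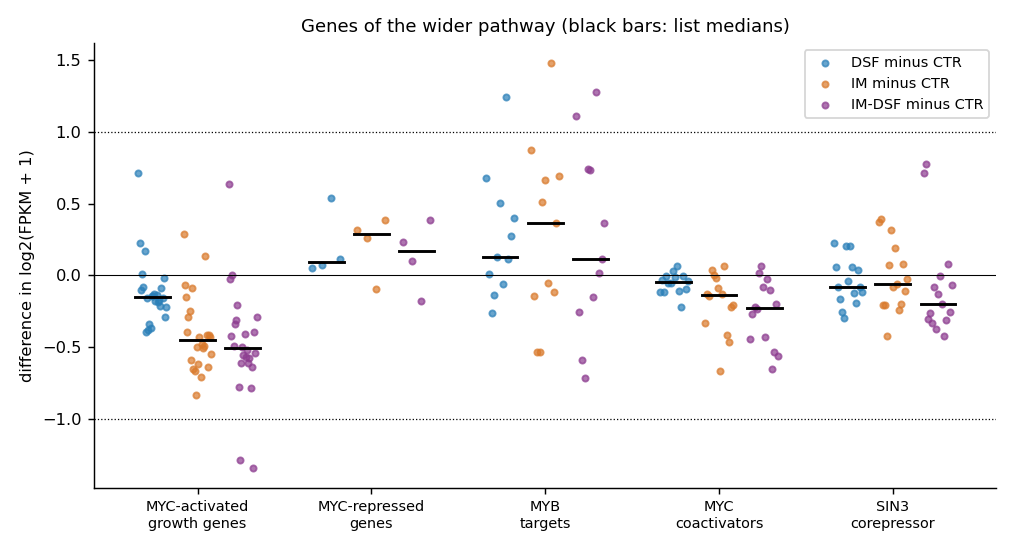
Difference in log2(FPKM + 1) (y axis) of single genes (points) in 5 lists of the wider pathway (x axis), for DSF, IM and IM-DSF against CTR; black bars are list medians and dotted lines mark 1 log2 unit. The median of the MYC-activated growth genes is -0.15 (DSF), -0.45 (IM) and -0.51 (IM-DSF).

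Almost no cofactor or regulator of the network reached the size rule, and few of all genes did. In IM-DSF against CTR 2.54% of all genes were called higher and 1.74% lower. None of the 15 SIN3 corepressor genes reached the size rule in any contrast, and their median in IM-DSF against CTR was -0.20. ARID4A and ARID4B, which were the most positive, stood at 2.48 and 3.37 FPKM in CTR, against 4.71 and 6.47 in IM-DSF. ARID4B shares exons with RBM34 on the same strand. None of the 14 MYC coactivator genes reached it either, with medians of -0.13 in IM and -0.22 in IM-DSF against CTR. RUVBL1, an ATPase of the MYC-associated chromatin complexes, stood at 13.7 FPKM in CTR against 8.40 in IM-DSF. Of the 10 genes of the complex that holds MGA, none was called; its subunit PCGF6 was lowest in DSF, with 5.82 FPKM in CTR and 3.22 in DSF, against 4.56 in IM and 4.92 in IM-DSF, as MAX was. Of 14 genes that act on MYC protein stability, PIM1, a kinase that stabilises MYC, was the one called. It was lower in IM against CTR, in IM-DSF against CTR and in IM-DSF against DSF, where 0.891%, 1.74% and 1.05% of all genes were. Of the 14 genes, 11 lay below CTR in IM (median -0.21). The list was not split by whether a gene stabilises MYC or not, so this median gives no direction for MYC stability. PIM1 had 16.1 FPKM in CTR and 8.18 in DSF, against 4.67 in IM and 2.63 in IM-DSF.

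The MLX arm, a parallel network in which MLX takes the place of MAX and MLXIP that of MYC, was measured through 2 genes. MLXIP, a glucose-responsive activator, had 5.84 FPKM in CTR and 6.79 in DSF, against 8.07 in IM and 8.33 in IM-DSF, the last at 1.43 times CTR (1.29 to 1.58). MLX had 7.17, 6.32, 9.92 and 8.16 FPKM in the same order, highest in IM at 1.38 times CTR (1.18 to 1.62). TXNIP, an inhibitor of thioredoxin and glucose uptake that MLXIP activates, had 8.60, 11.6, 19.3 and 19.2 FPKM in that order and was called higher in IM and IM-DSF against CTR, at 2.24 times (1.98 to 2.54) and 2.23 times (1.96 to 2.53). In those contrasts 1.54% and 2.54% of all genes were called higher. ARRDC4, the other classic MLXIP target, was not called in any contrast.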

How the data were processed

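RNA from 4 KBM5 samples was sequenced as stranded mRNA libraries, per the labels' protocols, and the authors deposited 1 table of FPKM values. Per the submitters' processing notes, HISAT2 2.0.4 and the build GRCh38.p14 were used. Which counter, annotation, gene lengths and strand setting gave the values is not given in the sources used here. Coordinates are those of the table; GENCODE 29 gave lengths, strand and overlaps. In single-exon genes under 30 fragments, FPKM times length was a whole multiple (within 0.05) of 1 step per library for 99.5% to 100% of genes, which gave the denominators of 12.4 to 15.8 (in units of 1000000 fragments). Fragment numbers used the longest coding transcript of a gene and are approximate. Ratios have exact conditional binomial and levels exact Poisson 95% intervals (SciPy 1.17.1), which cover counting error only and are too narrow if PCR copies are present. No count test was run. The filter was a mean of 1 FPKM, the pseudocount 1, and the size rule 1 log2 unit. The rule was tried on simulated libraries that held counting error only. Such libraries cannot show how often the rule errs through variation between real libraries. All members were named, and up to 4 genes per list by largest difference. APEX1, PTMA, NCL, NPM1, CDKN1A, THBS1, CCNB1, CCNE1, MPO and the myeloid markers beyond MPO lie outside that rule. They were picked after their values were seen. For MYC, MYB and MXD1 the 5 genes nearest in course were taken, of which 1 is not reported here. Members and lists were chosen with earlier results of these data known. As alternatives, the pseudocount was set to 0.1, the filter was dropped or raised to a mean of 5 FPKM, and values were rescaled by TPM, median-of-ratios and trimmed-mean factors. Leaving out genes that share exons with another protein-coding gene on the same strand was chosen after seeing the data.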

Additional observations from a re-analysis of the deposited data

Results flagged for a closer look

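MXI1 differed in opposite directions under IM depending on whether DSF was present. IM stood at 1.33 times CTR, while IM-DSF stood at 0.665 times DSF, and both counting intervals exclude 1. The contrasts share no library. With 1 library per group, the difference between them was not tested.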

How the results depend on the processing

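With a minimum mean of 5 FPKM, MYB, MXD4 and MGA were the 3 members left, and the number called higher against CTR was 1 in IM, 1 in IM-DSF and 0 in DSF; fewer genes tested accounts for these counts. Without genes that share exons with another protein-coding gene, an alternative chosen after seeing the data that removes MXD1, it was likewise 1, 1 and 0. The other counts of called members were the same in all settings that gave a value. The ratio of MYC to the antagonists is taken within 1 library, so rescaling factors cancel in it. The pseudocount and the dropped filter do not enter it either, so these settings could not change it. Leaving out exon-sharing antagonists moved the ratio within counting error, but its CTR and IM-DSF intervals then overlapped. The ratio and the departures were not computed at 5 FPKM, where MYC drops out. A pseudocount of 0.1 moved the MXD1 differences from CTR to 2.40 (DSF), 3.15 (IM) and 3.27 (IM-DSF), and the departures to -2.27 for MXD1 and -0.77 for MYC. It also called more genes in all: in IM against CTR 432 higher and 168 lower, in place of 169 and 98, and by over 1.5 times more in the other 4 contrasts too (for DSF against CTR 168 and 141, in place of 60 and 63; for IM-DSF against CTR 576 and 318, in place of 279 and 192; against IM 147 and 208, in place of 77 and 114; against DSF 317 and 223, in place of 146 and 115). The sign of MAX in IM-DSF against CTR (0.0004) became negative with median-of-ratios (-0.02) and trimmed-mean factors (-0.02). Among list medians, that of MYB targets in IM moved from 0.36 to 0.23 at a mean of 5 FPKM and to 0 with no filter, and that of MYC-repressed genes in IM from 0.29 to 0.10 with no filter. No paired analysis was possible because each group has 1 library. Depth limits MYC and MXD3 most, at approximately 15 to 47 fragments a library, numbers that depend on the transcript length assumed.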

Other observations

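MYC was among the least abundant genes that passed the minimum level, with 3.3% of the 11004 genes below it, and 2 genes it is known to activate, chosen after their values were seen from a list that runs from TERT at 0.530 FPKM to HSPD1 at 256 in CTR, were more abundant. NCL, nucleolin, stood at 183 FPKM in CTR against 129 in IM, and NPM1, nucleophosmin, at 139 against 103. MYC had 1.17 and 1.27 FPKM in the same libraries. NCL and NPM1 stood at 0.707 and 0.743 times CTR in IM, and both values lie inside the MYC interval of 0.692 to 1.69. NCL lies close to the lower bound, which depends on the transcript length assumed, so with a greater length it could fall outside. At the fragment numbers used, the MYC values therefore cannot tell whether its transcript was lower to the same degree. The antagonist sum was 30.3 FPKM in IM and 17.7 in CTR; its part in the lower levels was not tested.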
